A study of Gossypium hirsutum with 6 samples.

Results

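The genes described here encode the auxin response factors (ARF) and the Aux/IAA proteins of upland cotton (*G. hirsutum*). They were taken from the deposited count table as the protein-coding genes whose description contains "auxin response factor" or "auxin-responsive protein IAA" and whose 6 counts sum to at least 60 read pairs. The rule gave 116 genes, 65 ARF and 51 Aux/IAA, out of 44055 protein-coding genes with that many counts and 100562 genes listed. A further 22 genes matched the descriptions with fewer counts, 4 ARF and 18 Aux/IAA. Just inside the limit lay an *IAA12* gene on D09 (LOC107929026) with 60 counts and an *IAA30* gene on A07 (LOC121232255) with 63, and just outside it an *IAA30* gene on D11 (LOC107912237) with 40 counts and an *IAA12* gene on A09 (LOC107930314) with 36. These 4 genes are named only because of their place at the limit.

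RNA-seq was performed on wild type ovules of *G. hirsutum*, of the cultivar ZM24, which were taken from the boll on the day of flowering and kept in culture in the dark for 2 d. The control (CK) received water and the treated ovules received 10 μmol/L putrescine (Put), a diamine, and 3 samples of each were sequenced, so that the comparison asks which genes differ in level when Put is supplied. The other hormones of the culture medium, auxin among them, are not given in the sources used here. According to the methods of the study, the replicates came from a random division of the ovules, so the p-values below measure the spread between these samples, which may be technical.

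Auxin acts on transcription through these 2 families. ARF bind auxin response elements in promoters through a B3 domain, and in *Arabidopsis* ARF5, ARF6, ARF7, ARF8 and ARF19 are known as activators, whereas most of the others act as repressors. Aux/IAA proteins bind ARF through a shared C-terminal domain and recruit TOPLESS corepressors, which keeps the ARF target genes off. Auxin joins Aux/IAA proteins to the F-box receptors TIR1 and AFB of an SCF ubiquitin ligase, the Aux/IAA proteins are degraded and the ARF are released. Many Aux/IAA genes are themselves induced by auxin. In cotton ovules auxin is known to promote the initiation of fiber cells from the outer layer of the ovule.

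The domain annotation in the files matched the descriptions. All 65 ARF carried the B3 and the auxin response factor domain, and 39 of them also carried the AUX/IAA domain through which the 2 families interact. All 51 Aux/IAA genes carried the AUX/IAA domain and none of them the B3 domain. All 116 genes were found by identifier in the RefSeq gene table of the Gossypium_hirsutum_v2.1 assembly, and their chromosome names and positions are given for that assembly. The A subgenome held 31 ARF and 25 Aux/IAA genes, and the D subgenome 34 and 26. The chromosomes numbered 05 held more members than any other, with 16 genes on A05 and 15 on D05.

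Each sample had 16974557 to 19463059 counts, so that the smallest count taken as told from 0, which is 3, corresponded to 0.153 to 0.179 CPM (counts scaled to library size). The variance between samples of 1 condition was 1.72 to 1.86 times the counting noise, and that between conditions 20.96 to 21.91 times. The ovule marker *AGL11* was detected in all 4 of its genes, with a summed FPKM (fragments per kilobase of gene length, scaled to library size) of 362 to 365 in CK and 396 to 405 in Put, whereas the BEL1 homologs (4 of 5 detected) lay at 25.3 to 28.4 and 18.4 to 19.2. Markers of other cell types moved with the treatment. The fiber protein E6 (6 of 6 genes detected) had a summed FPKM of 1466 to 1530 in CK and 7336 to 7509 in Put, with 4 of its genes called higher and 2 lower, and genes of green tissue (38 of 57 detected) had 192 to 195 and 157 to 162. Pollen genes (6 of 16 detected) summed to 24.3 to 25.1 and 27.3 to 30.6. No description matched INNER NO OUTER, AINTEGUMENTA, MYB25 or fiber protein Fb. The part of these cell types in the changes described below was not tested, and in RNA from whole ovules fewer cells of a type and less RNA per cell cannot be told apart.

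In both families more members were called lower than higher with Put. Of the 65 ARF, 35 were lower, 9 were higher and 21 did not pass the test, and of the 50 Aux/IAA genes that could be tested, 28 were lower, 1 was higher and 21 did not pass (edgeR's quasi-likelihood test on the counts, Benjamini-Hochberg adjusted p under 0.05 over 51764 genes). Over all tested genes 18.2% were called lower and 18.4% higher, and over the tested protein-coding genes with 60 or more counts 20.2% and 19.4%. Among the members 54.8% were called lower and 8.70% higher. The median log2 fold change of Put over CK was -0.24 in the ARF and -0.29 in the Aux/IAA genes, beside 0.00088 over all tested genes. The changes were small, with a range of -1.29 to 0.78. Only 4 of the members called lower, 2 in each family, had a log2 fold change of 1 or more in size, and none of those called higher, where the background is 1.92% lower and 3.80% higher. In 65 of the 116 genes all CPM values with Put lay below all values in CK, and in 14 all lay above. The shares over all tested genes were not taken, so these counts of separate groups have no background beside them.

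**Figure D1:**
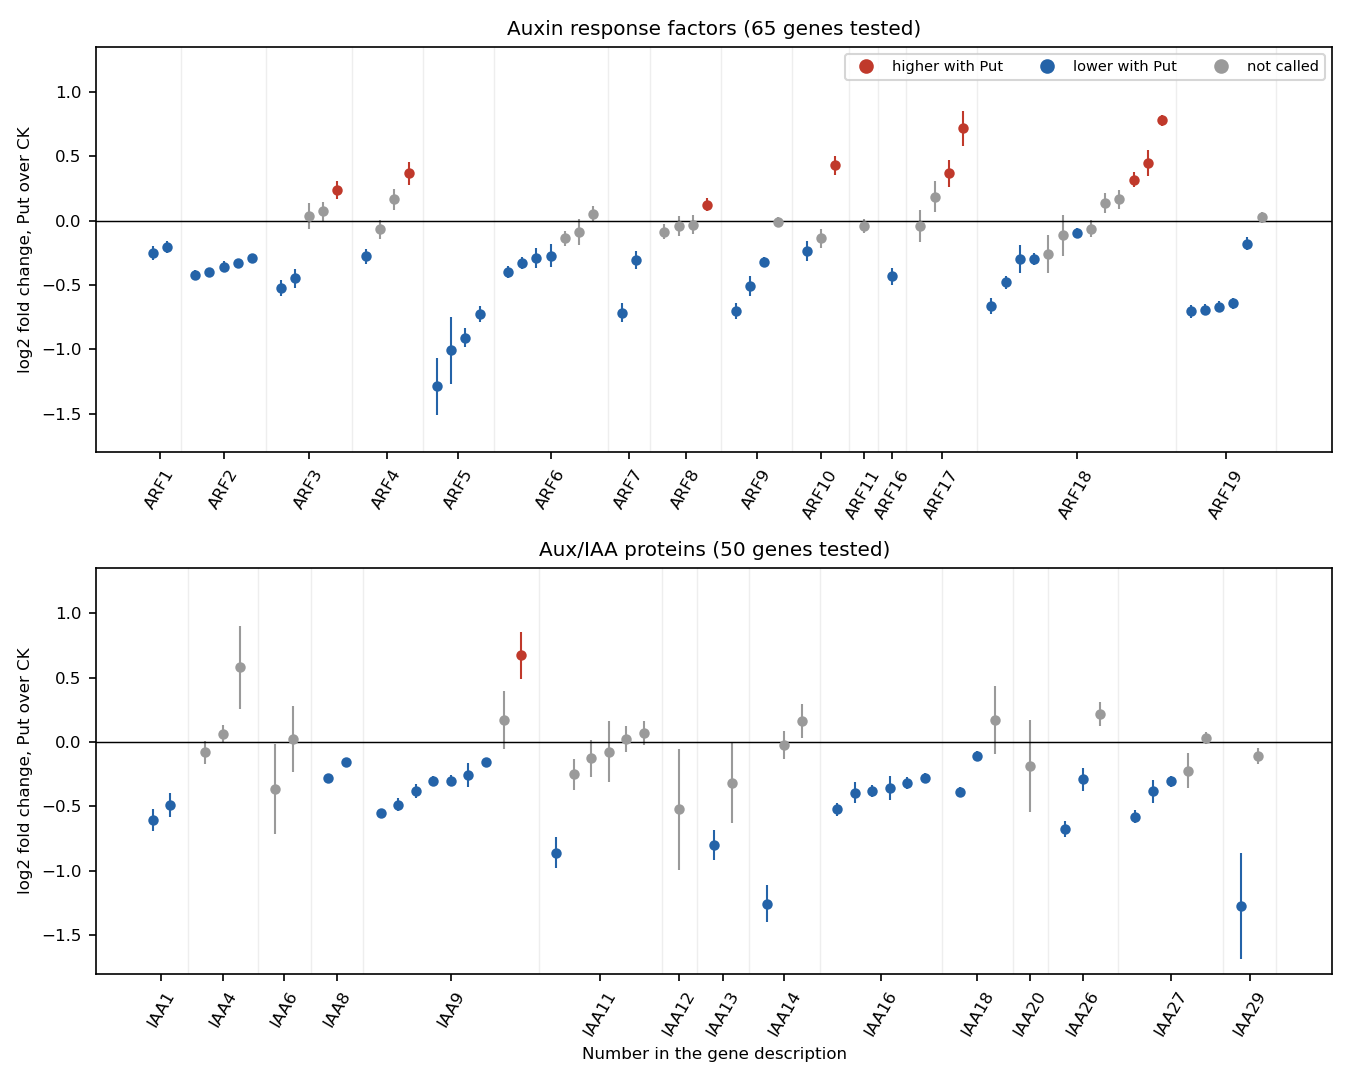
Log2 fold change of Put over CK, with its standard error, for each member that was tested, grouped by the number in the gene description and ordered by size within a group. Blue points are genes called lower, red points genes called higher and grey points genes that did not pass the test. All copies of *ARF1*, *ARF2*, *ARF5*, *ARF7*, *IAA1*, *IAA8* and *IAA16* are blue, and the only red Aux/IAA gene is a gene described as *IAA9*, at 0.67.

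The summed transcript level of the members of each family moved by far more than the spread between samples. Genes with the AUX/IAA domain that are annotated under older names are not members and are not in these sums. FPKM summed over the ARF were 853, 849 and 851 in CK and 733, 728 and 730 in Put, which is 85.8% of CK. For the Aux/IAA genes the sums were 1358, 1366 and 1361 in CK and 1103, 1106 and 1102 in Put, or 81.1% of CK. The ranges of CK and Put did not overlap in either family. The ratio of the Aux/IAA sum to the ARF sum was 1.591 to 1.608 in CK and 1.505 to 1.519 in Put. These sums rest on the abundant genes. The 4 most abundant Aux/IAA genes made up 30.7% of their family's sum in CK, and the 4 most abundant ARF made up 20.7%. Calls depended on abundance as well. Among members with a mean FPKM of at least 10, 23 of 29 ARF and 21 of 26 Aux/IAA genes were lower, whereas among those under 10 only 12 of 36 ARF and 7 of 24 tested Aux/IAA genes were. The share of all tested genes called lower at these levels was not taken, so the counts cannot be set against a background of like abundance.

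Gene length bears on these counts. Over all tested genes the fold change correlated with gene length (Spearman's rho of -0.24 across genes, given as a description), long genes tending to be lower with Put, and the ARF are long (median 3324 bp, against 1781 bp over all tested genes and 1466 bp in the Aux/IAA genes). When the offsets of the model followed gene length in every library, the correlation was 0.0035. The ARF then had 28 genes lower and 15 higher, with a median of -0.15, beside a background of 16.5% lower and 17.1% higher. All 9 ARF called higher stayed so and 6 more joined them, and 7 of the 35 called lower no longer passed. The Aux/IAA genes had 27 lower and 1 higher, with a median of -0.31. No member changed from a call in 1 direction to a call in the other. The summed FPKM given above and below were not adjusted for this trend with length.

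**Figure D2:**
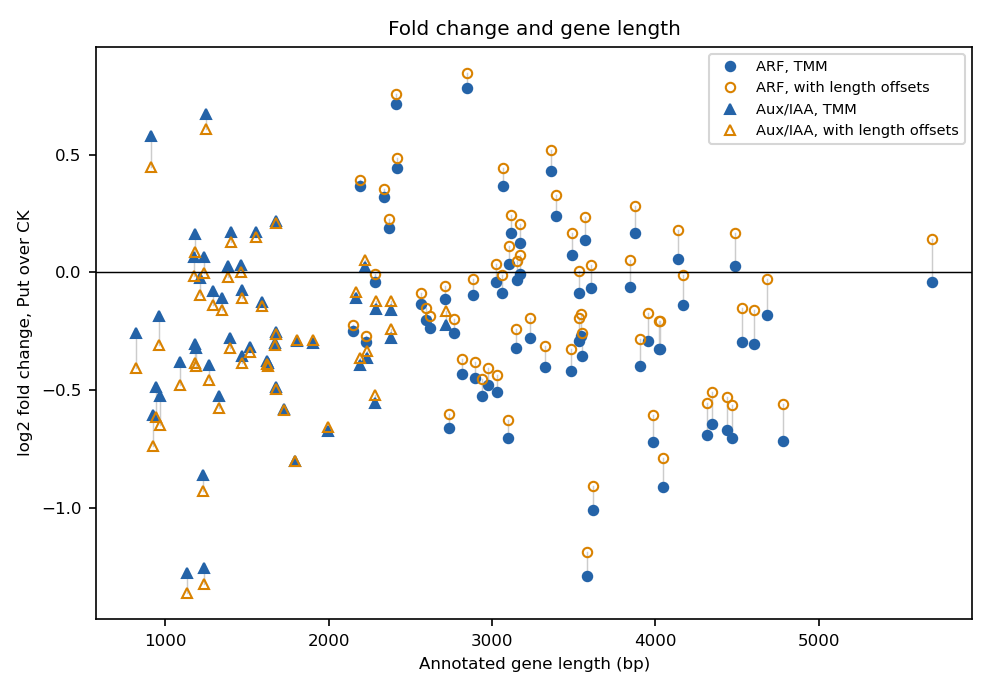
Log2 fold change of Put over CK against annotated gene length in base pairs for the tested ARF (circles) and Aux/IAA genes (triangles), with TMM normalization (blue) and with offsets that follow gene length (open, orange), joined by a line for each gene. ARF are longer and move upward with the offsets, to a median of -0.15, whereas Aux/IAA genes move little, from a median of -0.29 to -0.31.

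Among the ARF whose numbers are those of the *Arabidopsis* activators, 15 of 23 genes were lower and 1 was higher, with a median log2 fold change of -0.31. With length offsets 11 were lower and 3 higher, and the median was -0.19. Their summed FPKM fell from 247 ± 1.05 to 194 ± 0.702 (SD, n = 3), which is 78.5% of CK. In the remaining 42 ARF, 20 were lower and 8 higher, with a median of -0.12, and the sum in Put was 88.8% of that in CK. With length offsets 17 of these were lower and 12 higher, and the median was -0.07. The ARF with activator numbers were longer than the remaining ARF (median 4020 bp and 3049 bp), and the FPKM sums carry no length offsets. The difference between these groups was not tested.

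*ARF5*, known in *Arabidopsis* as MONOPTEROS, an activator needed for the embryo axis and the vasculature, had the lowest median log2 fold change of all numbers, at -0.96. All 4 copies were lower. The D05 copy (LOC107905492, 16901235 to 16907209) had 3.12, 4.38 and 3.64 CPM in CK and 1.54, 1.49 and 1.52 CPM in Put, a level 2.44 times as high in CK (log2 fold change -1.29, standard error 0.22, adjusted p = 4.84e-06, edgeR). Its A05 counterpart (LOC107957926) was as scarce, with 2.23, 3.36 and 2.18 CPM in CK and 1.21, 1.37 and 1.29 CPM in Put (log2 fold change -1.01, standard error 0.26). In both genes every Put sample lay below every CK sample. With limma on log2(FPKM + 1) and on log2(FPKM + 0.1), the A05 copy did not pass the test, at -0.33 and -0.82.

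The other pair of *ARF5* genes was more abundant, with a mean FPKM of 10.8 and 7.04 in CK beside 0.712 and 1.03 for the pair on A05 and D05, and moved alike. LOC107918011 (A01, 22786326 to 22792278) had 43.8, 42.2 and 43.6 CPM in CK and 24.0, 27.0 and 27.7 CPM in Put (log2 fold change -0.72, standard error 0.062, adjusted p = 1.94e-14, edgeR). LOC107922066 on D01 had 28.7, 28.4 and 28.9 CPM in CK and 15.3, 14.6 and 15.8 CPM in Put, at a log2 fold change of -0.91. Neither gene had overlapping groups. The summed FPKM of the 4 *ARF5* genes in Put was 56.5% of that in CK, the lowest share of any number in both families.

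*ARF7* and *ARF19* are close relatives that together drive lateral root formation in *Arabidopsis*. Of the 8 cotton genes with these numbers, 7 were lower. In the *ARF19* gene LOC107907087 (D05, 3034564 to 3041710) the CPM were 65.0, 63.5 and 65.4 in CK and 39.3, 39.8 and 40.0 in Put (log2 fold change -0.70, standard error 0.049, adjusted p = 8.72e-18, edgeR). Its counterpart LOC107958833 on A05 had 84.0, 81.9 and 81.9 CPM in CK and 52.7, 50.3 and 50.6 in Put, at -0.69. A second pair, on A07 and D07 (LOC107929914 and LOC121219224), had log2 fold changes of -0.67 and -0.64, so that the 4 copies of these pairs lay between -0.70 and -0.64. This pair was named after its values were seen.

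The remaining *ARF19* genes differed from these. LOC107904307 on A05 had 69.6, 71.5 and 73.5 CPM in CK and 70.3, 71.4 and 76.9 CPM in Put, which did not pass the test, at 0.03 (standard error 0.044). With length offsets this gene was called higher, at 0.17 (adjusted p = 0.0015, edgeR). LOC107931591 on D04 had 51.8, 55.4 and 51.1 CPM in CK and 45.5, 48.0 and 46.4 CPM in Put, a fall of 0.18 on the log2 scale that was not called with length offsets. These 2 genes were likewise named after their values were seen. Their CK and Put ranges overlapped in the first and did not in the second. The summed FPKM of *ARF19* went from 107 ± 1.38 to 76.1 ± 0.660, or 71.2% of CK.

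The *ARF7* copies differed in size of change. LOC107962189 (A06, 22319271 to 22327063) had 30.3, 29.3 and 27.3 CPM in CK and 18.6, 17.1 and 17.1 CPM in Put (log2 fold change -0.71, standard error 0.074). LOC107901036 on D06 had 31.5, 32.0 and 29.0 CPM in CK and 23.2, 25.8 and 25.9 CPM in Put, at -0.31, and was not called with length offsets. The groups did not overlap in either copy.

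*ARF6* and *ARF8*, which promote the maturation of stamens and pistils in *Arabidopsis*, changed less. Of 7 *ARF6* genes, 4 were lower, with log2 fold changes of -0.40 to -0.27, and 2 of these were lower with length offsets. None of the 4 *ARF8* genes was lower. LOC107954826 on D07, named after its values were seen, was higher by 0.12 with an adjusted p of 0.0434 (edgeR), but did not pass with DESeq2 (adjusted p = 0.1005). The summed FPKM of *ARF8* was 41.8 to 43.7 in CK and 41.7 to 43.7 in Put, so the ranges overlapped.

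**Figure D3:**
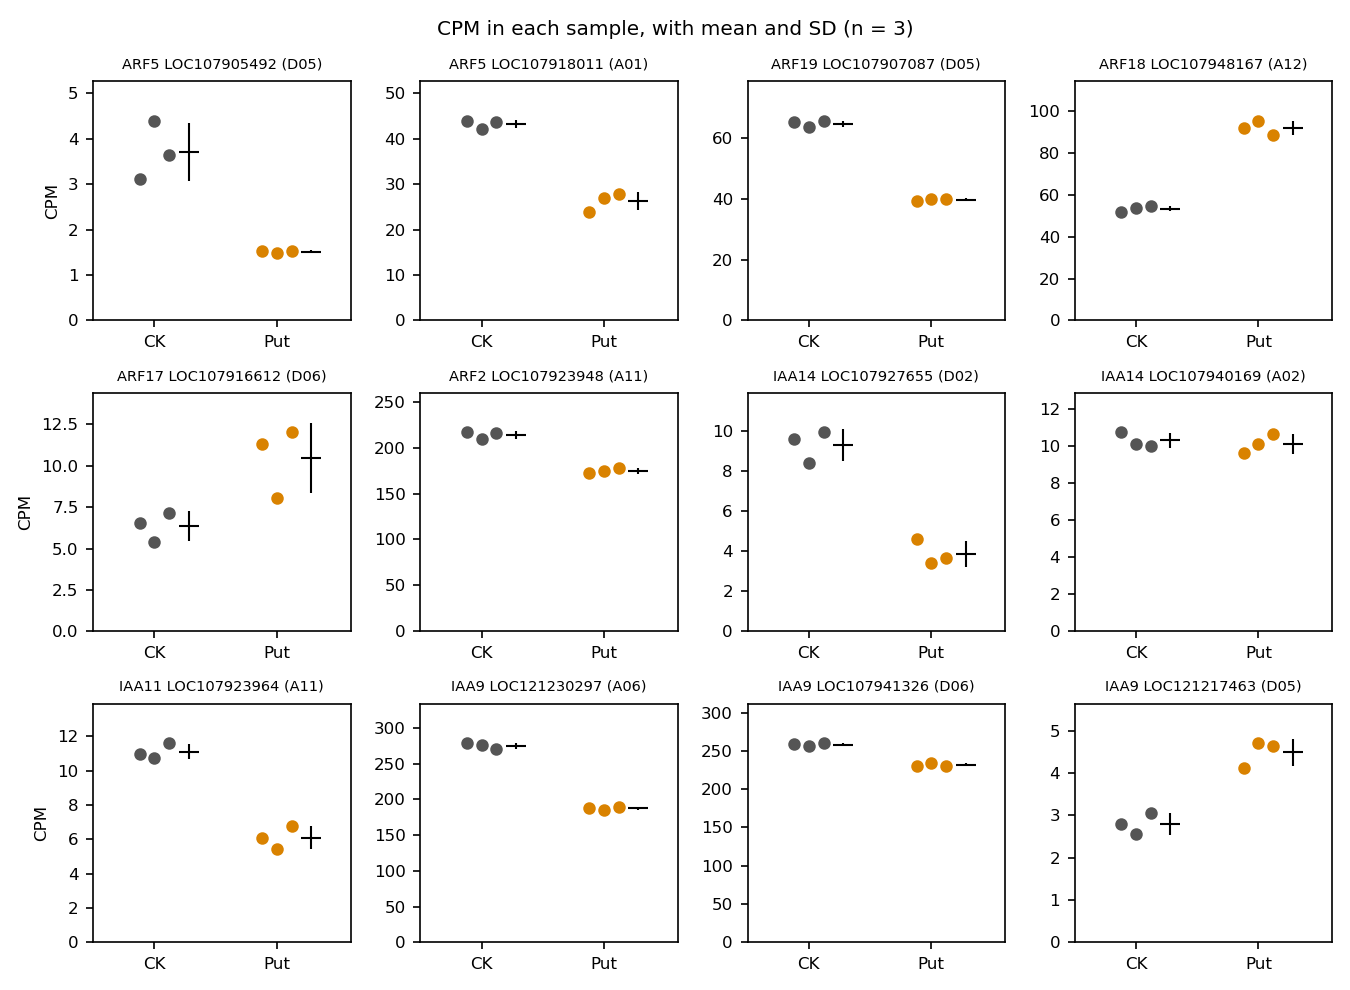
CPM of 12 members in each CK sample (grey) and Put sample (orange), with the mean and SD (n = 3) as a bar and line beside the points. Each panel has its own axis from 0. In *ARF5*, *ARF19*, *ARF2*, *IAA11* and the D02 copy of *IAA14* all Put samples lie below all CK samples. In *ARF18*, *ARF17* and the D05 gene described as *IAA9* they lie above, and in the A02 copy of *IAA14* the samples overlap.

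*ARF2*, a repressor that restrains the growth of the ovule integument and seed in *Arabidopsis*, was the most abundant ARF. All 5 *ARF2* genes were lower, at log2 fold changes between -0.42 and -0.29. LOC107923948 (A11, 3803880 to 3809393) had the highest FPKM of all ARF, with a mean of 53.7 in CK and 43.9 in Put. Its CPM were 217, 209 and 216 in CK and 172, 175 and 178 in Put (log2 fold change -0.29, standard error 0.029, adjusted p = 2.65e-12, edgeR). The next in level were LOC107944673 on D11 (mean FPKM 50.6 in CK), LOC121219292 on D07 (37.4) and LOC121232023 on A07 (34.5), with log2 fold changes of -0.33, -0.40 and -0.42. No *ARF2* gene had overlapping groups. The number as a whole took 23.1% of the ARF sum in CK and 21.1% in Put.

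*ARF1*, which acts with *ARF2* in the ageing and shedding of floral organs in *Arabidopsis*, was lower in both genes, by 0.20 and 0.25 on the log2 scale. Of 4 *ARF9* genes, 3 were lower, and the fourth, LOC107904460 on D11, had a log2 fold change of -0.01 beside -0.32 in its A11 counterpart. These *ARF9* genes were named after their values were seen.

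*ARF3*, known as ETTIN for its part in patterning the pistil, and *ARF4*, which acts with it in organ polarity, went both ways. The *ARF3* pair on A10 and D10 fell by 0.45 and 0.52, whereas the A05 copy rose by 0.24. The *ARF4* gene LOC107959261 (A05, 7173064 to 7178529) had 15.3, 14.9 and 13.7 CPM in CK and 20.3, 16.4 and 19.9 CPM in Put (log2 fold change 0.37, standard error 0.089, adjusted p = 0.000712, edgeR). All Put samples were above all CK samples. Its D05 counterpart LOC107906725 had a log2 fold change of 0.17 that passed the test only with length offsets, and another *ARF4* gene on D09 (LOC107891491, named after its values were seen) fell by 0.28.

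ARF10, ARF16 and ARF17 form a class that is restrained by the microRNA miR160 in *Arabidopsis*. Of the 8 cotton genes described as ARF10, ARF16 or ARF17, 3 were higher and 2 lower. This count follows the descriptions, and LOC107906237 on D05 and LOC107930156 on A13, described as ARF18, have ARF10 as their best match in Swiss-Prot. They are among 8 genes described as ARF18 that lack the AUX/IAA domain, of which 1 was higher and 2 lower. Whether these 8 genes belong to the class was not tested. LOC107916612, an *ARF17* gene on D06 (5829581 to 5833321), had 6.54, 5.40 and 7.17 CPM in CK and 11.3, 8.03 and 12.02 CPM in Put (log2 fold change 0.72, standard error 0.13, adjusted p = 1.46e-05, edgeR). Its A06 counterpart LOC107962460 had 10.4, 9.43 and 10.8 CPM in CK and 14.0, 11.9 and 13.6 CPM in Put, at a log2 fold change of 0.37. Groups did not overlap in either gene. The other *ARF17* pair, on A05 and D05, did not pass the test, and the 4 genes summed to 13.1 to 15.6 FPKM in CK and 16.0 to 18.6 in Put.

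Among 3 *ARF10* genes, LOC107959020 on A05 was higher (25.1, 20.7 and 21.0 CPM in CK and 29.0, 29.6 and 31.4 CPM in Put, log2 fold change 0.43, standard error 0.072, adjusted p = 2.51e-06, edgeR), the A03 copy was lower by 0.24 but not called with length offsets (-0.18), and the D03 copy did not pass. The D05 counterpart of LOC107959020, LOC107906237, is described as *ARF18* and did not pass, at 0.14. It was called higher with length offsets, at 0.24. The only *ARF16* gene (LOC121222529, D10) was lower, with 34.6, 37.1 and 31.8 CPM in CK and 26.3, 27.0 and 23.5 CPM in Put (-0.43). These groups did not overlap. The gene at the matching place on A10 is described as *ARF18* (LOC107944087) and was lower as well, by 0.66. The *ARF16* gene and its counterpart were named after their values were seen.

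ARF18 is the largest number, with 13 genes, and a mixed set. Of these, 5 carried the AUX/IAA domain and their best match in Swiss-Prot was ARF9, whereas 8 lacked that domain. The summed FPKM was 147 to 150 in CK and 149 to 153 in Put, but single genes moved apart, with 3 higher, 5 lower and 5 not called.

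The ARF with the highest fold change was among those with the domain. LOC107948167 (A12, 81664617 to 81668656) had 52.0, 53.6 and 54.6 CPM in CK and 91.6, 95.0 and 88.7 CPM in Put, a level 1.72 times as high with Put (log2 fold change 0.78, standard error 0.043, adjusted p = 8.27e-22, edgeR). Its D12 counterpart LOC107945001 had 35.4, 34.1 and 32.7 CPM in CK and 41.6, 40.3 and 45.6 CPM in Put, at 0.32. Both genes were higher in every Put sample. The other 3 genes with the domain were all lower, LOC107924309 and LOC107924220 on A11 and D11 by 0.30 and 0.48 and LOC107954481 on D07 by 0.10, and were named after their values were seen. The call of the D07 gene was lost with DESeq2 (adjusted p = 0.0846) and with length offsets, where its log2 fold change was -0.03.

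The pair on A13 and D13, without the domain, was called in opposite directions. LOC107936074 (D13) had 11.3, 9.63 and 10.03 CPM in CK and 13.8, 14.3 and 14.1 CPM in Put (log2 fold change 0.45, standard error 0.10). LOC107930156 (A13) had 12.6, 10.04 and 12.9 CPM in CK and 10.5, 9.70 and 8.68 CPM in Put, at -0.30 with an adjusted p of 0.0312 (edgeR). The rise was without overlap, but the A13 groups overlapped, and the fall did not pass with DESeq2, with limma, with length offsets or without any of 4 of the 6 samples, where it lay between -0.30 and -0.23.

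Split by domain, 26 of the 39 ARF with the AUX/IAA domain were lower and 4 higher (median log2 fold change -0.31), and of the 26 ARF without it 9 were lower and 5 higher (median -0.08). With length offsets the counts were 23 lower and 8 higher, and 5 lower and 7 higher. The ARF with the domain were longer (median 3579 bp and 2919 bp) and more abundant (median FPKM in CK of 14.5 and 5.95), and the difference between the groups was not tested.

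Among the Aux/IAA genes the 4 most abundant were lower by small amounts, with every Put sample below every CK sample. *IAA9*, whose loss gives fruit without fertilization and simple leaves in tomato, was the number in 9 descriptions, and 7 of these genes were lower. The lower genes include LOC107953686 on D07, whose best match in Swiss-Prot is IAA20. LOC121230297 on A06 (3426341 to 3430209) was the most abundant Aux/IAA gene in CK, with a mean FPKM of 120 in CK and 81.3 in Put. Its CPM were 278, 277 and 270 in CK and 188, 185 and 189 in Put (log2 fold change -0.55, standard error 0.027, adjusted p = 3.20e-24, edgeR). The D06 counterpart LOC107941326 was similar in CK, with 259, 256 and 260 CPM, and lay at 231, 235 and 231 CPM in Put, at -0.16 (adjusted p = 2.10e-06, edgeR). Put was below CK in every sample of both, and the D06 copy was the more abundant of the pair in Put, with a mean FPKM of 100 beside 81.3.

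The only Aux/IAA gene called higher was also described as *IAA9*. No Swiss-Prot match was given for it, and that of its A05 counterpart was IAA11. LOC121217463 on D05 (1454824 to 1456341) had 2.80, 2.55 and 3.07 CPM in CK and 4.12, 4.70 and 4.63 CPM in Put (log2 fold change 0.67, standard error 0.18, adjusted p = 0.00235, edgeR). Its groups did not overlap, but its mean FPKM was 2.23 in CK, beside 112 and 120 in the most abundant genes of that number. Its A05 counterpart LOC107942686 did not pass the test, at 0.17 (standard error 0.22).

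The *IAA8* genes, the next in FPKM as single genes, were both lower. LOC107957855 on A05 had 238, 240 and 245 CPM in CK and 199, 195 and 201 CPM in Put (log2 fold change -0.28, standard error 0.027, adjusted p = 1.66e-12, edgeR). LOC107905200 on D05 had 200, 217 and 198 CPM in CK and 189, 184 and 178 CPM in Put, at -0.16. The groups were apart in each gene. All 6 *IAA16* genes were lower too, with log2 fold changes of -0.52 to -0.28, and their FPKM summed to 284 to 286 in CK and 218 to 223 in Put. LOC107926842 on D11, the most abundant of them, was at 97.8, 95.9 and 97.4 CPM in CK and 80.5, 79.5 and 80.1 CPM in Put, while its A11 counterpart LOC107889565 passed the test at -0.36 but not without CK replicate 2 (-0.26).

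*IAA27* was lower in 3 of 5 genes. LOC107907196 (D05, 2309412 to 2311906) had 62.4, 63.7 and 66.3 CPM in CK and 42.6, 42.8 and 43.4 CPM in Put (log2 fold change -0.58, standard error 0.049, adjusted p = 9.62e-15, edgeR), and its A05 counterpart LOC107958744 fell by 0.38. Neither had overlapping groups. Another *IAA27* gene, LOC107950694 on D03, lists reverse transcriptase domains beside its AUX/IAA domain, and whether reads of an inserted element are counted there was not tested. It did not pass the test (-0.22, named after its values were seen). In *IAA18*, LOC107944212 on A05 fell by 0.39 and LOC107906133 on D05 by 0.11, the latter not called with limma, with length offsets or without CK replicate 2 or Put replicate 3.

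The largest falls came from less abundant genes. IAA14 is known in *Arabidopsis* as SOLITARY ROOT, the repressor that blocks lateral roots when it is stabilized, and its 2 cotton copies on A02 and D02 parted with Put. LOC107927655 (D02, 5211680 to 5213716) had 9.60, 8.41 and 9.92 CPM in CK and 4.61, 3.39 and 3.64 CPM in Put, a level 2.39 times as high in CK (log2 fold change -1.26, standard error 0.14, adjusted p = 1.75e-10, edgeR). LOC107940169 (A02, 4322278 to 4324224) had 10.7, 10.1 and 10.03 CPM in CK and 9.61, 10.1 and 10.7 CPM in Put, at -0.03 on the log2 scale (standard error 0.11). The D02 groups were far apart and the A02 groups overlapped. Neither the third *IAA14* gene (A09) nor any of the 3 *IAA4* genes passed the test, and 2 of the *IAA4* genes lie near the *IAA14* pair on A02 and D02.

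*IAA11*, *IAA13* and *IAA26* each had a gene on an A chromosome that fell by 0.67 or more on the log2 scale. LOC107923964 (*IAA11*, A11) had 10.95, 10.8 and 11.6 CPM in CK and 6.10, 5.41 and 6.80 CPM in Put (log2 fold change -0.86, standard error 0.12, adjusted p = 4.78e-08, edgeR), and its D11 counterpart LOC107923990 did not pass, at -0.25. LOC107952058 (*IAA13*, A10) had 10.7, 12.1 and 11.4 CPM in CK and 6.98, 6.43 and 6.16 CPM in Put, at -0.80. LOC107897354 (*IAA26*, A10) had 41.3, 40.3 and 38.8 CPM in CK and 26.3, 23.0 and 26.2 CPM in Put, at -0.67, and its D10 counterpart LOC107913884 was lower by 0.29. Put lay below CK in all 3 of these A copies without overlap. The remaining 5 *IAA11* genes, the D10 copy of *IAA13* and the A06 copy of *IAA26* did not pass the test.

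*IAA1* was lower in both genes, LOC121220004 on D08 (22.4, 20.9 and 21.3 CPM in CK and 14.3, 14.9 and 13.2 CPM in Put, log2 fold change -0.61) and LOC107909235 on A08 (-0.49). The *IAA29* gene on D05 (LOC107906873, named after its values were seen) was called lower at -1.27, but from counts of 25, 30 and 13 in CK and 13, 7 and 5 in Put, which overlap. The single *IAA20* and *IAA12* genes and both *IAA6* genes had 2.34 CPM or less in every sample and were not called. *IAA30* was too low to be tested.

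**Figure D4:**
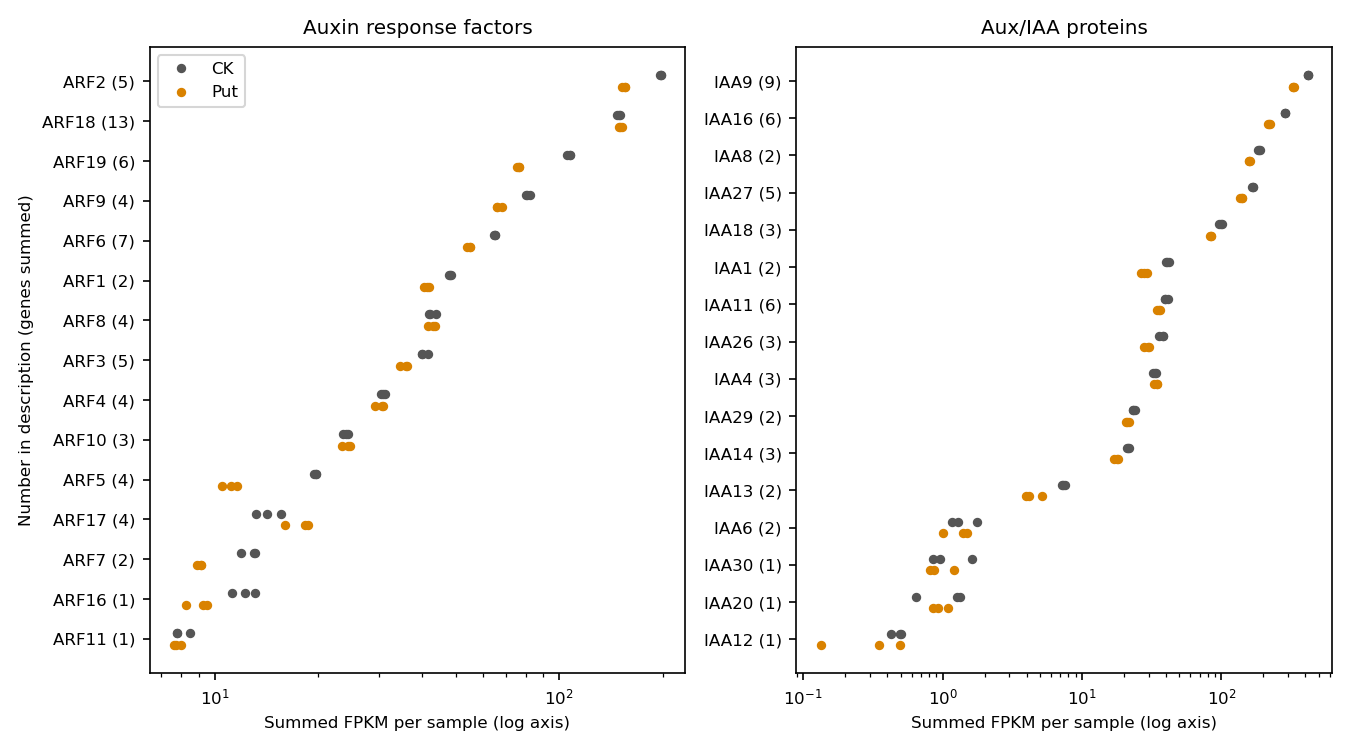
FPKM summed over the genes of each number, in each CK sample (grey) and Put sample (orange), on a log axis, with the number of genes in parentheses. *ARF2* and *IAA9* lead their families, at 197 and 416 in CK. The CK and Put points of *ARF5* are far apart (19.4 to 19.6 and 10.5 to 11.6), those of *ARF8* and *IAA4* overlap, and those of *ARF17* lie higher in Put.

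Both subgenomes had lower sums with Put in each family. The ARF sum in Put was 86.3% of CK for the A copies and 85.4% for the D copies, and the Aux/IAA sum 78.8% and 82.9%, and these differences between subgenomes were not tested. The A copies made up 47.6% of the ARF sum in CK and 47.8% in Put, and 44.8% and 43.5% of the Aux/IAA sum. Within some single pairs the balance moved. By order along chromosomes of the same number, 90 members formed 45 A and D pairs, 26 of ARF and 19 of Aux/IAA. In 21 pairs both copies were lower, in 2 both were higher, in 9 neither was called and in 1, *ARF18* on A13 and D13, they were called in opposite directions. The remaining pairs had 1 copy called. In 21 pairs the log2 ratio of A to D did not overlap between CK and Put, with the ratio higher in 9 and lower in 12. The ratios are given as a description, and no pair was tested. The shares over all A and D pairs of the genome were not taken, so these counts of pairs have no background beside them.

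The log2 ratio changed by at least 0.5 in 3 of these pairs. In *IAA14* it was 0.19, 0.29 and 0.04 in CK and 1.07, 1.57 and 1.55 in Put, a shift from 1.13 to 2.63 times as much of the A copy as of the D copy. In the *ARF18* pair on A13 and D13 it was 0.27, 0.17 and 0.47 in CK and -0.27, -0.43 and -0.57 in Put, so the D copy became the more abundant. In *IAA11* on A11 and D11 it went from 0.59, 0.73 and 0.67 to 0.17, -0.13 and 0.12. How reads that match both copies were assigned is not given in the sources used here, so the split between the copies of a pair is uncertain.

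**Figure D5:**
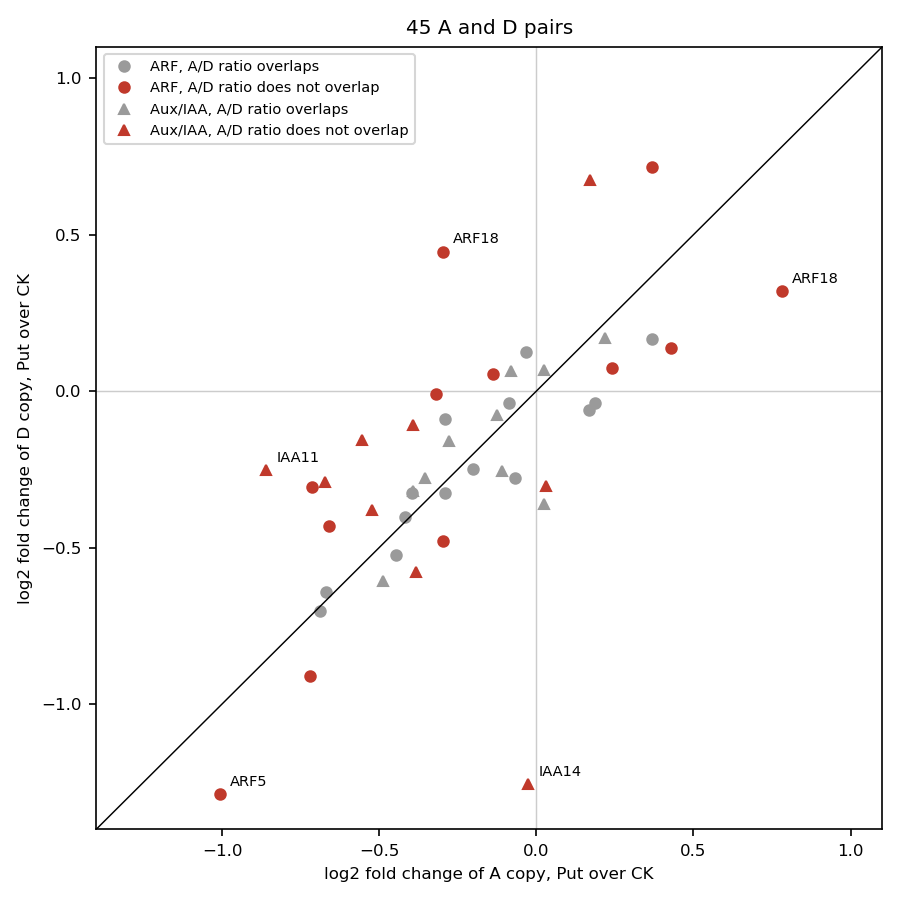
Log2 fold change (Put over CK) of the D copy against that of the A copy in 45 pairs of ARF (circles) and Aux/IAA genes (triangles), with the line of equal change. Red marks pairs whose A to D ratio did not overlap between CK and Put. *IAA14*, with -0.03 in the A copy and -1.26 in the D copy, and *ARF18* on A13 and D13, with -0.30 and 0.45, are farthest from the line.

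The other genes of the pathway were read from lists made by description. Over all tested genes 18.4% were called higher and 18.2% lower. Of 18 genes of the TIR1 and AFB receptors, 7 (38.9%) were lower and 1 (5.56%) was higher, with a median log2 fold change of -0.10. *AFB2* on A11 (LOC107923921) fell most, with 118, 122 and 124 CPM in CK and 85.6, 84.3 and 87.1 CPM in Put (log2 fold change -0.50, standard error 0.037, adjusted p = 5.59e-17, edgeR). A TIR1-like gene on A08 (LOC107952252) was called higher at 0.21, but not with limma and not without CK replicate 2 or Put replicate 1. Of 20 TOPLESS corepressor genes, 16 (80%) were lower and 2 (10%) higher, with a median of -0.33. LOC121229336 on A05 had 50.6, 49.2 and 49.8 CPM in CK and 34.7, 33.6 and 32.5 CPM in Put (-0.57). The groups of *AFB2* and of this TOPLESS gene did not overlap. The low-abundance TOPLESS gene LOC107962908 on D06 rose by 0.68. Of 37 tested genes of the SCF subunits (cullin 1, SKP1 and RBX1), 11 (29.7%) were higher and 5 (13.5%) lower, from LOC107932479 (SKP1, -0.55) to LOC107938152 (SKP1, 0.44). With length offsets 8 of the SCF genes were higher and 6 lower. The receptors then had 3 higher and 6 lower, and the TOPLESS genes 1 higher and 14 lower.

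Early auxin response genes, which auxin commonly induces quickly, were called in both directions. Of 53 tested SAUR genes, which promote cell expansion, 11 (20.8%) were higher and 8 (15.1%) lower, shares near the 18.4% and 18.2% over all tested genes. Of 32 tested GH3 genes, whose enzymes join auxin to amino acids, 7 (21.9%) were higher and 11 (34.4%) lower. The *GH3.1* gene LOC107908866 on D02 had 6.70, 7.29 and 6.24 CPM in CK and 16.9, 19.2 and 18.6 CPM in Put (log2 fold change 1.44, standard error 0.10, adjusted p = 4.18e-17, edgeR), whereas another *GH3.1* gene, LOC107941902 on D11, was lower (-1.73). Groups did not overlap in either. Among called SAUR genes with a mean of at least 1 CPM, *SAUR67* on D02 (LOC107908147, 2.48) rose most. In the same set *SAUR50-like* on D06 (LOC107940722, -1.26) fell most, while the lowest value of all tested SAUR genes was -1.93. Both named genes had few counts, and *SAUR50-like* did not pass without CK replicate 2 (-0.92).

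Of 40 tested genes of auxin transport, 20 (50%) were lower, 2 (5%) higher and 18 not called, with a median log2 fold change of -0.42. The shares over all tested genes were 18.2% lower and 18.4% higher. The efflux carrier gene *PIN1c* on A12 (LOC121211249) had 6.96, 6.01 and 6.24 CPM in CK and 1.59, 2.38 and 1.76 CPM in Put (-1.75, standard error 0.18, adjusted p = 1.82e-11, edgeR), and the *PIN-LIKES 7* gene LOC107939605 on A02 was higher by 0.87. Of 12 tested genes of auxin synthesis, 4 (33.3%) were lower, with *YUCCA10* on A08 (LOC107948990) at -1.53, and 2 (16.7%) were higher, the latter near the share over all tested genes. The tryptophan aminotransferase gene LOC107954642 on D07 had 5, 5 and 1 counts in CK and 37, 26 and 32 in Put (log2 fold change 3.22, standard error 0.44). All 4 genes had separate groups.

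Some Aux/IAA genes stand in the annotation under older names and were not members by the rule. Of 18 genes described as AUX22, AUX28, 22B or 22D, 17 carry the AUX/IAA domain. This list was chosen after its values were seen. Of 16 tested, 8 (50%) were higher and 3 (18.8%) lower, with a median log2 fold change of 0.12, beside 1 higher and 28 lower of 50 in the genes named IAA. Over all tested genes the shares were 18.4% higher and 18.2% lower. Their highest was a 22D gene on D07 (LOC107941656), with 2.91, 2.50 and 2.70 CPM in CK and 11.5, 10.4 and 9.21 CPM in Put (log2 fold change 1.94, standard error 0.15, adjusted p = 3.30e-16, edgeR), without overlap. Their lowest was an *AUX28* gene on D11 (LOC107922883), at -1.30. The counts of the members therefore describe the genes annotated as IAA and not every gene with the domain.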

How the data were processed

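RNA-seq was performed on 3 CK and 3 Put samples, grouped by their labels. The authors deposited counts, which are raw numbers of read pairs for each gene of the Gossypium_hirsutum_v2.1 annotation. They also deposited FPKM, whose normalization between samples equals DESeq2's size factors. HISAT2 2.0.5 is named in the submitters' processing notes, and the counting program and its use of strand are not given in the sources used here. Dose and culture time follow the study's methods.

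The analysis of the counts used edgeR 4.0.16 in R 4.3.3 (filterByExpr, TMM, quasi-likelihood test, Benjamini-Hochberg adjustment over 51764 genes), and 115 of the 116 members passed the filter on low counts. Standard errors were taken from the fold change and the F statistic. CPM use TMM library sizes. The totals of 16974557 to 19463059 counts and 3 samples per condition set the precision. The tests were checked on simulated data. Levels between genes and their sums were taken from FPKM, without a test.

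The members and gene lists were chosen with earlier results of these data known. Named members are, in each family, the 6 highest and the 6 lowest called genes by log2 fold change, provided that the mean CPM reached 1 and the conditions did not overlap, the 4 most abundant in CK, and the counterparts of all these. In each pathway list it was the called gene with the largest rise and that with the largest fall, provided that the mean CPM reached 1. The named genes are therefore not always the extremes of their list. The tested transport genes, for example, ranged from -2.96 to 3.04 on the log2 scale. Any other gene is said to be chosen after its values were seen, and genes given only within a count or range illustrate that count.

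No protein sequence was given, so A and D pairs were taken by order along same-numbered chromosomes (same family and strand, and a shared number in the description or Swiss-Prot match), a rule chosen after the data were seen. The log2 ratio of A to D used FPKM with 0.1 added. The background of protein-coding genes with 60 or more counts was also added after the data were seen. Alternatives were DESeq2 1.42.0 (size factors and Wald test), limma 3.58.1 where the mean FPKM was 0.5 or more (values as log2(FPKM + 1), and again with 0.1 added), library size without TMM, other filters, length offsets (lowess span 0.3), stricter thresholds, a replicate block and leaving out each sample. Promoters and protein motifs were not analysed here.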

Additional observations from a re-analysis of the deposited data

How the results depend on the processing

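Counts of ARF and Aux/IAA genes called lower stayed within 1.5 times under library sizes without TMM or with DESeq2's size factors, DESeq2's Wald test, limma on both FPKM scales, 2 other filters on low counts, length offsets and an adjusted p under 0.01 (27 or 28 Aux/IAA genes, except 25 at the stricter p, and 28 to 36 ARF). ARF called higher numbered 15 with length offsets and 8 or 9 under the others. Where a log2 fold change of 1 or more in size was also required, 2 ARF and 2 Aux/IAA genes were lower, and 0 of each were higher. Without each sample in turn, 24 to 28 Aux/IAA genes were lower and 1 to 2 higher, and 31 to 35 ARF lower and 8 to 9 higher. The lowest values for genes called lower came without CK replicate 2, and the 2 higher Aux/IAA genes without CK replicate 1. Same-numbered CK and Put samples did not deviate together (correlations of -0.005, -0.0085 and -0.0133), and with a replicate block 34 ARF were lower and 8 higher, and 28 Aux/IAA genes lower and 1 higher. For the 61 genes named by rule, 885 values under an alternative kept direction and call, 26 lost the call, 2 gained it and 2 turned. Those that turned were of LOC107940169 (*IAA14*, A02), which is not called, at 0.0078 without CK replicate 1 and 0.013 without Put replicate 1, in a range of -0.064 to 0.013 over the samples left out. The A to D ratios did not overlap in the same number of pairs, 21, when CPM were used in place of FPKM. Library scaling cancels in a ratio within a sample, and the ratio of the gene lengths of a pair is the same in every sample. This count could therefore hardly have differed and is no independent check. Depth limits the genes near 1 CPM, where standard errors reached 0.47 on the log2 scale and changes of the size seen in most members were not detectable.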
